A study of Mus musculus with 13 samples.

Results

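The 37 genes described here encode coagulation and complement proteins that hepatocytes make and release into plasma. They were picked by name, with earlier results of these data known. A gene counted as measured where the array held a feature (a set of probes summarised as 1 value) annotated with exactly 1 gene symbol, and the feature with the highest mean over all livers stood for a gene that had several. By this rule 33 of the 37 genes were measured, among the 18820 genes that the table names. Of these, 18 were counted under coagulation, its inhibitors and fibrinolysis, and 15 under complement. Serping1 (C1 inhibitor) was counted among the 18. Klkb1 (plasma prekallikrein) and Masp2 (a lectin pathway protease) had only features shared with another gene, Cyp4v3 and Tardbp. Cpb2 (a carboxypeptidase that slows clot lysis) and C3 (the central complement component) had no named feature. These 4 genes were not analysed here.

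Liver RNA of 13 mice on the C57BL/6J background was hybridised to Affymetrix whole-transcript arrays, with 1 array per mouse. The study compared wild-type mice with mice lacking Sel1L in hepatocytes, made by joining homozygous floxed alleles of Sel1l (loxP sites around exon 6) with a Cre transgene under the albumin promoter. The 3-week groups held 3 wild-type and 4 Sel1L-deficient mice and the 9-week groups 3 mice of each genotype, all taken after 5 to 6 hours without food. Sel1L is the partner of the ubiquitin ligase Hrd1 in ER-associated degradation, by which the endoplasmic reticulum (ER) disposes of misfolded proteins. The albumin promoter is active in hepatocytes, so the other cells of the liver keep the gene, and the RNA came from whole liver. The labels call the controls wildtype without naming further alleles, and give neither sex nor litter. Transcripts of the Y-linked genes Eif2s3y, Kdm5d and Uty stood between 5.04 and 6.95 on the log2 scale in all 13 livers, and Xist between 1.71 and 2.64. In whole liver, fewer cells of a type and less RNA per cell cannot be told apart.

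Blood clotting runs as a chain of plasma proteases that ends with thrombin cutting fibrinogen into fibrin, and is held in check by circulating inhibitors and by protein C. Complement is started by antibody, by sugar-binding lectins or on foreign surfaces, passes through cleavage of C3, and ends with C5 to C9 forming a pore in the target membrane. Hepatocytes are the main source of most of these proteins, which fold, form disulfide bonds and are glycosylated in the ER before secretion.

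Levels of Sel1l, which check the genotype labels, did not overlap between genotypes at either age. Its log2 values were 8.94, 8.77 and 8.85 in wild type and 8.42, 7.90, 7.20 and 7.10 in Sel1L-deficient liver at 3 weeks. At 9 weeks they were 8.78, 8.70 and 8.72 against 7.90, 7.54 and 7.72. Neither difference passed the threshold over all features (limma, adjusted p = 0.391 and 0.108). The hepatocyte markers Alb, Apoa1, Ttr and Cps1 stood between 12.08 and 13.34 in every group mean, near the top of the scale at 13.62. Across arrays the medians lay between 3.72 and 3.81.

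The 250 bases upstream of the annotated start are given here for the terminal complement genes with the largest differences between groups (C6, C9, C8a and C8b). They are also given for F7, which fell in 2 comparisons that share livers, and for the fibrinogen chain gene Fgb. They are RefSeq sequences of the mouse build GRCm38.p6, written 5′ to 3′ along the gene's strand. Capitals mark matches, on either strand, to sequence motifs named after the liver factors that bind such sites: STAT (TTCNNNGAA), HNF1 (GTTAAT), HNF4 (CAAAGTCCA) and C/EBP (TTGCNNAA). The motifs UPRE (TGACGTG) and ERSE of the unfolded protein response and a TATA motif (TATAAA) were searched as well.
C6 (chr15:4726960-4727209, plus strand): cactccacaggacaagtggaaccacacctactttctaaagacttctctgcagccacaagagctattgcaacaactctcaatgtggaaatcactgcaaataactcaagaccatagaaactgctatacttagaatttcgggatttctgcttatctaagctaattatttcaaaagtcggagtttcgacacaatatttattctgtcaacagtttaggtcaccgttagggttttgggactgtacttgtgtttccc
C9 (chr15:6445096-6445345, plus strand): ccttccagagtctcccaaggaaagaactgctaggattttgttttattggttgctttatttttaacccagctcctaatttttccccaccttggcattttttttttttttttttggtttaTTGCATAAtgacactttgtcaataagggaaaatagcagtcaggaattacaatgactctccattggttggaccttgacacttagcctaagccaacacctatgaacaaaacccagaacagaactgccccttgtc
C8a (chr4:104876399-104876648, minus strand): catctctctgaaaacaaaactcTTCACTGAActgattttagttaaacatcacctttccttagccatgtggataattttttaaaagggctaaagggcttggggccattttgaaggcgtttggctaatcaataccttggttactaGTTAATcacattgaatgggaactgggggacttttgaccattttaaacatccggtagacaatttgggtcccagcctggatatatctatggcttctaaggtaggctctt
C8b (chr4:104766067-104766316, plus strand): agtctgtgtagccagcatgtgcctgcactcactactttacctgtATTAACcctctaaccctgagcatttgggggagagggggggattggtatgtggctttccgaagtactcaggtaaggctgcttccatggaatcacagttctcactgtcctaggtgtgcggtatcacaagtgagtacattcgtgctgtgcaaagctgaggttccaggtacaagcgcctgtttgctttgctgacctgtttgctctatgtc
F7 (chr8:13025784-13026033, plus strand): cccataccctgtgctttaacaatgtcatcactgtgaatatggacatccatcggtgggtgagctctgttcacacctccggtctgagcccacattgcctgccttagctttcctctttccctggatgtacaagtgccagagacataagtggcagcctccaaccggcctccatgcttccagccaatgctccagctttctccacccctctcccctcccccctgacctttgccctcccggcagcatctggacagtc
Fgb (chr3:83049864-83050113, minus strand): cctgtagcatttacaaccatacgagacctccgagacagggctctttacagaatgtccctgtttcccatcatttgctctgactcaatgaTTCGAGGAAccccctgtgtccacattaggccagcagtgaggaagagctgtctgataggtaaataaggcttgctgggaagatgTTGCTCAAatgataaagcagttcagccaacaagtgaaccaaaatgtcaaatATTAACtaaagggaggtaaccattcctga
In C8a the STAT motif began at -228 and the HNF1 motif at -107, counted from the annotated start. C8b had an HNF1 motif at -206, and C9 a C/EBP motif at -132. Fgb had a STAT motif at -162, a C/EBP motif at -80 and an HNF1 motif at -29, and none of these matches overlapped another. The windows of C6 and F7 held none of the 7 motifs. Of the 33 measured genes 26 had a promoter in the table, with 28 promoters in all. A member gene was counted where any of its promoters held the motif, whereas the share beside it counts single promoters. The HNF1 motif was present for 8 of the 26 genes (30.8%), against 6.43% of all 32851 promoters of this length. The C/EBP motif was present for 6 genes (23.1% against 9.56%), the STAT motif for 5 (19.2% against 7.02%) and the TATA motif for 1 (3.85% against 12.4%). The TATA match was in Hc and began at -239. These counts are small, and the shares were not tested against each other. Neither HNF4, UPRE nor ERSE was found in the members' windows (0% each), and these motifs occurred in 0.384%, 1.65% and 0.113% of all promoters. The matches describe letters only, and binding of a factor was not measured here.

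At 3 weeks the coagulation and complement transcripts differed little between genotypes. None of the 33 passed the test in either direction (limma over all 35556 features, 0% of features called), and 1 of them, C4bp, had an unadjusted p under 0.05, against 7.41% of all features. The median log2 difference of the members, Sel1L-deficient minus wild type, was 0.07, with 21 above 0 (51% of features) and 12 below (49%), beside a median of 0.00 over all features. The differences ran from -0.18 for C1s1 to 0.37 for C9. A fit with an intensity trend in the prior spread also called 0 features.

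C4bp encodes the plasma protein that binds C4b and limits the classical pathway. Its values at 3 weeks were 10.27, 9.96 and 10.15 in wild type and 10.43, 10.35, 10.39 and 10.23 in Sel1L-deficient liver, a log2 difference of 0.23 ± 0.09 (SE; adjusted p = 0.613). The groups overlapped through the fourth Sel1L-deficient liver alone. C8g, the gamma chain of the eighth component, stood at 10.84, 10.91 and 10.71 against 10.82, 10.98, 11.03 and 11.13. C8a, its alpha chain, stood at 8.89, 8.58 and 9.17 against 9.34, 9.35, 9.21 and 9.00, with the fourth Sel1L-deficient liver below the highest wild-type liver. F5, the cofactor with which factor X activates prothrombin, stood at 10.07, 10.32 and 10.15 against 10.29, 10.36, 10.33 and 10.27. None of these 4 genes separated the groups. Plg, the gene of plasminogen, was the 1 member whose groups did not overlap at this age (3.88% of features did not overlap in that direction), at 12.13, 12.07 and 12.13 against 12.23, 12.14, 12.23 and 12.18. No member lay wholly below wild type (0 of 33, against 3.53% of features). Markers of Kupffer cells lay below 0 in 11 of 11 genes at this age (median -0.35), as did those of stellate cells in 8 of 8 (-0.27), platelets in 4 of 4 (-0.47), erythroid cells in 3 of 3 (-0.92), monocytes and neutrophils in 6 of 6 (-0.16) and sinusoidal endothelium in 6 of 8 (-0.22). None of these markers was called, and their part in the members' values was not tested.

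At 9 weeks the same genes lay lower in Sel1L-deficient liver. Of the 33, 8 fell (0.484% of all features were called in that direction, and 1.3% of the 9091 features at or above the lowest member's mean level) and 0 rose (1.03% of features). The 8 were C6, C9 and C8a of the membrane attack complex, C1s1, C2 and Mbl1 of complement initiation, and F7 and F13b of coagulation. Without regard to the test, 30 of 33 lay below 0, against 51.5% of all features, and the median log2 difference was -0.44, against -0.01 over all features. The range of the 3 Sel1L-deficient livers lay wholly below that of the 3 wild-type livers for 27 of 33, against 8.52% of all features and 13.4% of those 9091 features. A further 7 members had an adjusted p between 0.05 and 0.1, and 26 had an unadjusted p under 0.05, against 13.9% of all features.

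**Figure D1:**
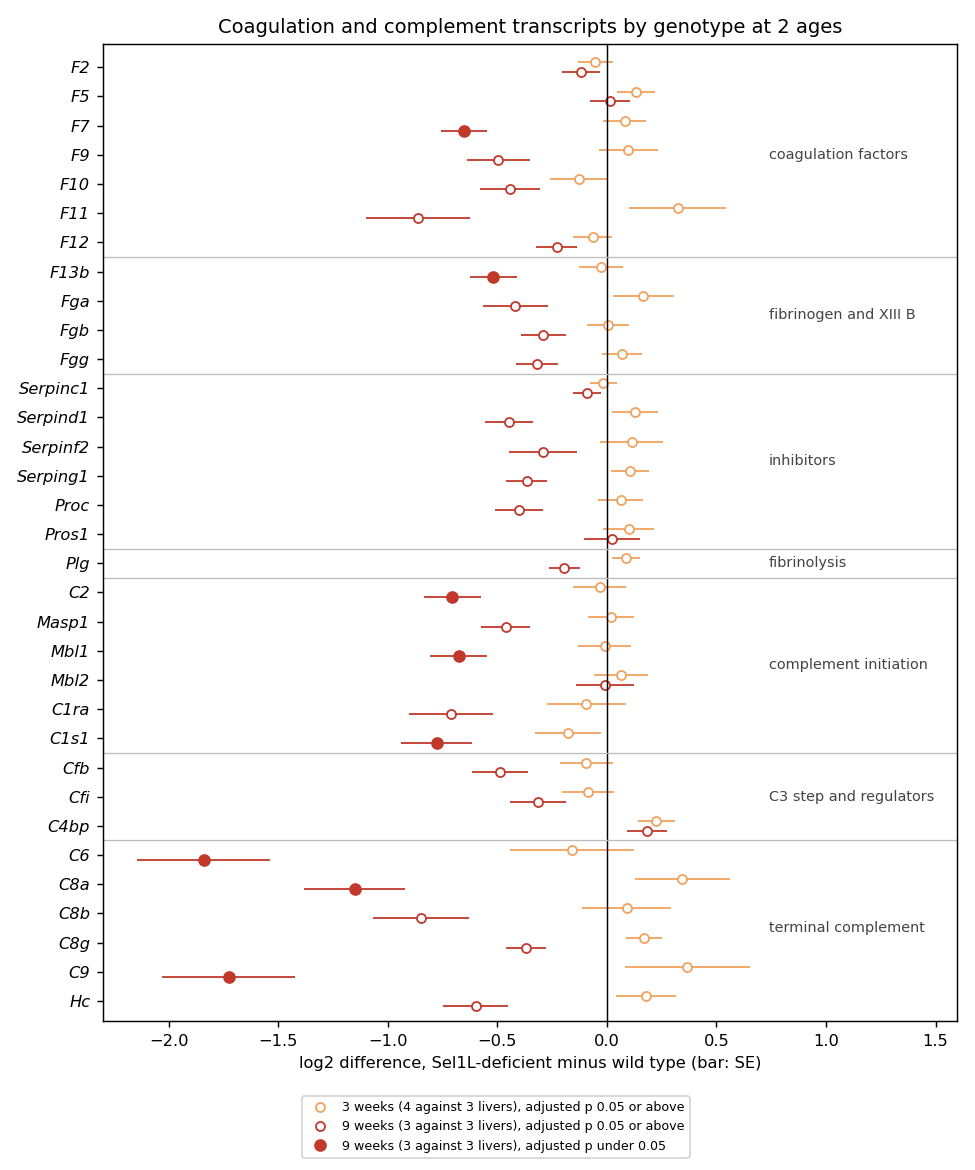
Log2 difference between Sel1L-deficient and wild-type liver (horizontal axis; bar, SE of the limma fit) for each of the 33 members, grouped by role, at 3 weeks (orange) and 9 weeks (red). Filled points mark an adjusted p under 0.05. The 3-week points lie between -0.18 and 0.37, and the 9-week points reach -1.84, with the 8 filled points all at 9 weeks.

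The terminal components had the largest differences of the role groups, with a median of -1.0 at 9 weeks, 3 of 6 that fell and no overlap between the groups in any of the 6. C6 (feature 10422635) encodes the subunit that joins C5b to start the pore. It stood at 8.53, 8.33 and 9.30 in wild type and 7.56, 6.34 and 6.74 in Sel1L-deficient liver, and fell to 0.279-fold (log2 difference -1.84 ± 0.30, SE; adjusted p = 0.0191). Every Sel1L-deficient liver lay at least 1 wild-type SD (0.51) below the wild-type mean of 8.72. C9 (feature 10422748), whose copies line the pore, stood at 10.51, 10.51 and 10.61 against 9.33, 8.29 and 8.83. It fell to 0.302-fold (-1.73 ± 0.30; adjusted p = 0.0233), and the SD was 0.06 among the wild-type and 0.52 among the Sel1L-deficient livers.

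The eighth component is built from 3 chains, of whose genes 1 passed the test. C8a (feature 10514763) stood at 10.24, 10.41 and 10.46 in wild type and 9.79, 8.74 and 9.12 in Sel1L-deficient liver and fell to 0.450-fold (-1.15 ± 0.23; adjusted p = 0.0364). C8b, its beta chain, stood at 11.27, 11.36 and 11.14 against 10.89, 10.03 and 10.31. Its difference of -0.85 ± 0.22 missed the threshold (adjusted p = 0.0894). C8g stood at 11.37, 11.42 and 11.46 against 11.05, 11.01 and 11.09, with the smallest difference of the 6 and little spread in either genotype (-0.37 ± 0.09; adjusted p = 0.0718). Hc, the mouse gene of C5, differed by -0.60 ± 0.15 (adjusted p = 0.0754). In all 6 genes the lowest wild-type liver lay above the highest Sel1L-deficient liver.

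Complement initiation came next, with a median of -0.69, 3 of 6 that fell and 5 of 6 without overlap. C1s1 (feature 10547740), the protease of the C1 complex that cleaves C4 and C2, stood at 8.91, 9.02 and 8.88 in wild type and 8.57, 7.89 and 8.02 in Sel1L-deficient liver (-0.78 ± 0.16; adjusted p = 0.0406). C2 (feature 10450344), the protease part of the classical C3 convertase, stood at 8.06, 8.20 and 7.95 against 7.49, 7.27 and 7.33 (-0.71 ± 0.13; adjusted p = 0.0290). Mbl1 (feature 10414211), a mannose-binding lectin, stood at 8.99, 8.99 and 9.40 against 8.23, 8.50 and 8.62 (-0.68 ± 0.13; adjusted p = 0.0319). For all 3 genes the groups were apart, and for Mbl1 the first Sel1L-deficient liver was the lowest, unlike in most members. Mbl2, the second mannose-binding lectin, showed no such difference (-0.01 ± 0.13), with Sel1L-deficient livers at 9.99, 9.44 and 9.76 around the wild-type values of 9.82, 9.85 and 9.55. C1ra, which activates C1s, differed by -0.71 ± 0.19 (adjusted p = 0.106) and Masp1, a lectin pathway protease, by -0.46 ± 0.11 (adjusted p = 0.0724). Mice have near-identical copies of C1ra and C1s1, so the features of both genes may pick up signal of the copy.

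Around the C3 step, 0 of the 3 measured genes passed the test. Cfb, the protease of the alternative C3 convertase, differed by -0.49 ± 0.13 (adjusted p = 0.0929) and Cfi, the protease that inactivates C3b and C4b, by -0.31 ± 0.13 (adjusted p = 0.289). C4bp was the 1 member on the other side of wild type without overlap (9.89% of features lay so). Its values were 10.42, 10.36 and 10.48 in wild type and 10.68, 10.56 and 10.58 in Sel1L-deficient liver, a difference of 0.18 ± 0.09 that missed the threshold (adjusted p = 0.406).

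Among the coagulation factors, 1 of 7 fell, 5 of 7 were without overlap and the median was -0.44. F7 (feature 10570280), which starts clotting together with tissue factor, stood at 9.13, 9.18 and 9.01 in wild type and 8.65, 8.43 and 8.29 in Sel1L-deficient liver. It fell to 0.636-fold (-0.65 ± 0.11), with the smallest adjusted p of all members (0.0181). F11, the contact factor that activates factor IX, had a larger difference with more spread (-0.86 ± 0.24; adjusted p = 0.111). F9 (-0.50 ± 0.14) and F10 (-0.44 ± 0.14), the proteases on either side of the tenase complex, and F12 (-0.23 ± 0.09), which starts contact activation, were apart from wild type but not called. F2, the prothrombin gene (-0.12 ± 0.09), and F5 (0.01 ± 0.09) overlapped with wild type.

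The 3 fibrinogen chains and the B subunit of factor XIII all separated the groups at 9 weeks, with a median of -0.37 and 1 of 4 that fell. F13b (feature 10350425), the carrier subunit of the factor that crosslinks fibrin, stood at 8.86, 8.86 and 8.94 against 8.62, 8.34 and 8.14 (-0.52 ± 0.11; adjusted p = 0.0406). Fga, Fgb and Fgg, whose products form 1 hexamer, differed by -0.42 ± 0.15, -0.29 ± 0.10 and -0.32 ± 0.10 (adjusted p = 0.219, 0.215 and 0.144). A second feature of Fga with a lower mean level gave -0.52 (adjusted p = 0.448). Fgb, Fgg and Plg were the 3 members with a liver within 1.5 log2 units of the highest value of the table (13.62), at up to 12.56, 12.34 and 12.23. Probes near the top of the scale can compress differences, and whether they did so here was not tested, since the scans were not used.

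**Figure D2:**
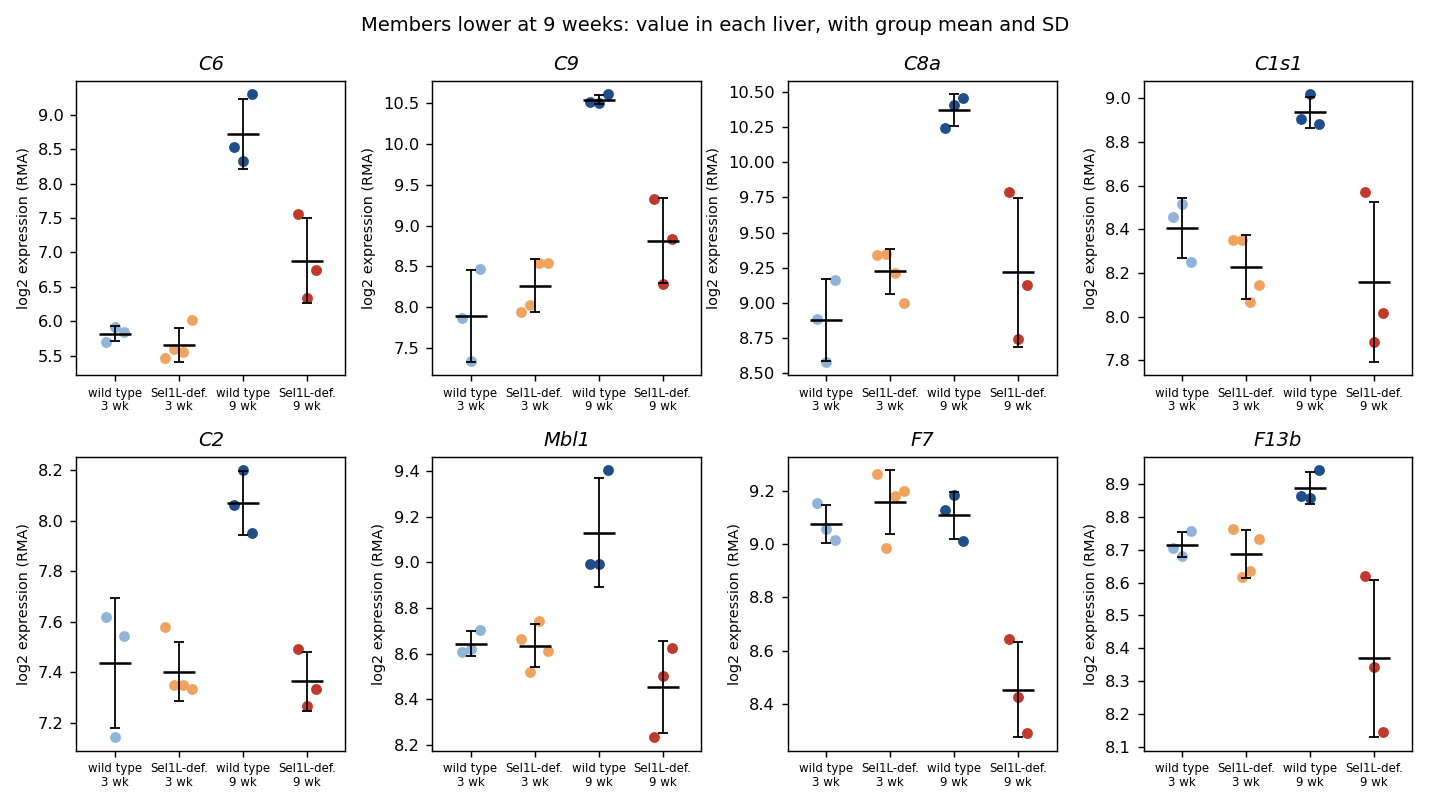
RMA log2 expression (vertical axis, a separate range for each gene) of the 8 members that fell at 9 weeks, with 1 point per liver, a bar at the group mean and whiskers of 1 SD, for wild type (blue) and Sel1L-deficient (orange and red) liver at 3 and 9 weeks. In all 8 panels the 3 Sel1L-deficient livers of 9 weeks lie below the 3 wild-type livers of 9 weeks, and the 3-week groups overlap.

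Of the 6 inhibitors of the cascades 0 fell and 4 were without overlap, with a median of -0.33. Serpind1 (heparin cofactor II) differed by -0.45 ± 0.11 (adjusted p = 0.0759), Proc (protein C) by -0.40 ± 0.11 (adjusted p = 0.106) and Serping1 (C1 inhibitor) by -0.37 ± 0.09 (adjusted p = 0.0867). Serpinf2 (alpha 2-antiplasmin) differed by -0.29 ± 0.15 and overlapped. Serpinc1, the antithrombin gene, differed by -0.09 ± 0.06 and Pros1, the protein C cofactor protein S, by 0.02 ± 0.13. Plg differed by -0.19 ± 0.07 (adjusted p = 0.232) and lay below wild type in every Sel1L-deficient liver. Over both cascades, 2 of 18 coagulation members and 6 of 15 complement members fell, with medians of -0.34 and -0.68. Without the terminal components 5 of 27 fell and the median was -0.40.

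The 9-week calls rested on few livers. The number of members that fell was 0 without replicate 1 of the wild-type livers or replicate 2 or 3 of the Sel1L-deficient livers of that age, 1 without wild-type replicate 2 or 3, and 18 without Sel1L-deficient replicate 1. Leaving out a 3-week Sel1L-deficient liver, which enters the fit only through the shared spread, gave 4 or 5. With only the 2 groups of 9 weeks in the fit none of the 8 was called (adjusted p from 0.149 to 0.238). The share of all features called in each of these fits is not given here, so the counts do not set the members apart from other genes. Of 21 alternatives, the call was lost in 15 for C1s1 and for F13b, in 11 for C8a, in 9 for Mbl1, in 7 for C2, in 6 for C6 and for C9 and in 5 for F7. The median of the members ran between -0.57 and -0.37 with 1 liver left out. The array descriptions carry a number, 5 or 7, that is found in every group and whose meaning the labels do not give. The members' median difference at 9 weeks was -0.37 within number 5 (1 wild-type and 2 Sel1L-deficient livers; 29 of 33 below 0) and -0.54 within number 7 (2 and 1; 32 of 33 below 0). At 3 weeks it was -0.03 within number 5 (2 and 2; 18 of 33 below 0) and 0.13 within number 7 (1 and 2; 10 of 33 below 0), so the median over all livers, 0.07, had no stable sign.

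In the members' values, replicate 1 of the 9-week Sel1L-deficient livers lay nearest to wild type. It was the highest of its group in 29 of 33 members. The mean log2 difference of the members from the wild-type mean was -0.27 in it, against -0.63 and -0.60 in replicates 2 and 3, and for the terminal components it was -0.66 against -1.44 and -1.16. Even so, 27 of its 33 members lay below every wild-type liver of that age, against 31 and 30 in the others. Several other gene lists also differed between this liver and the others of its group. For acute phase proteins replicate 1 lay farthest from wild type. Their scores were -0.52, -0.0001 and -0.21 in replicates 1, 2 and 3, with wild type between -0.01 and 0.03. ER stress markers (7 genes, of which 6 rose at 9 weeks) had scores of 1.35, 2.59 and 2.64. Kupffer cell and macrophage markers (0 of 11 called) had scores of -0.68, 0.42 and 0.42, with wild type between -0.26 and 0.21. Markers of sinusoidal endothelium, stellate cells, bile duct, blood cells and platelets were not called either (0 called at both ages). Hepatocyte markers (0 of 4 called) had scores of 0.00, -0.13 and -0.13, with wild type between -0.04 and 0.04. The part of these differences in the members' values was not tested.

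**Figure D3:**
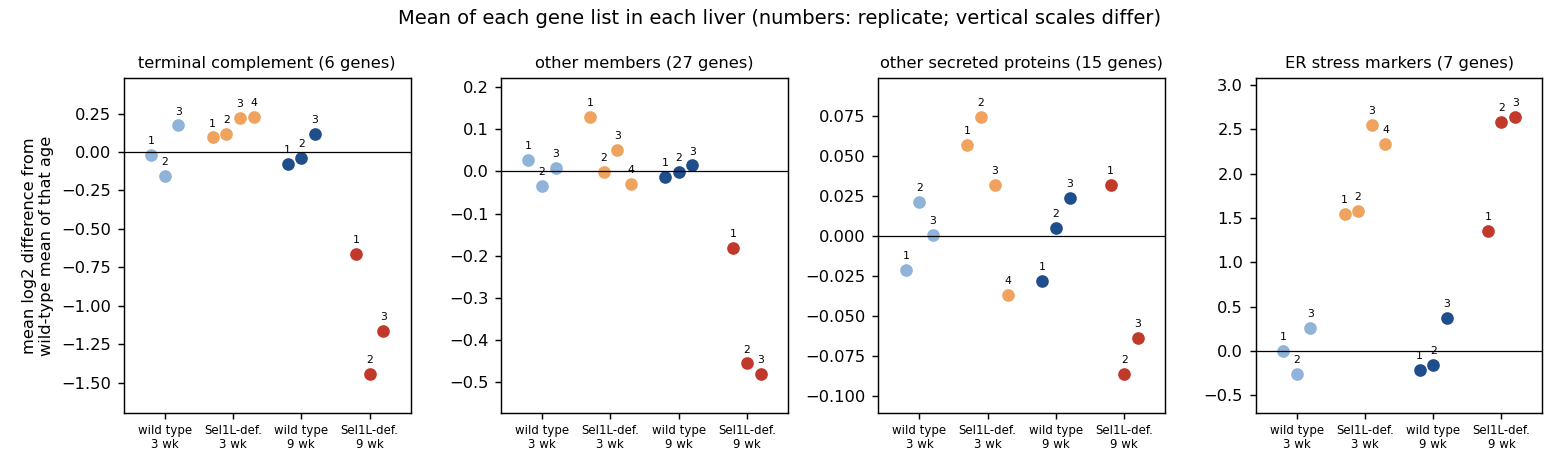
Mean log2 difference from the wild-type mean of the same age (vertical axis, a separate range for each panel) over the genes of 4 lists, with 1 numbered point per liver. The 6 terminal complement genes and the other 27 members lie below 0 in each Sel1L-deficient liver of 9 weeks, the 15 other secreted proteins stay between -0.09 and 0.07 in all livers, and the 7 ER stress markers lie above wild type at both ages. The lists were not matched in level.

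Other abundant secreted hepatocyte proteins were compared at 9 weeks. Of 15 such genes, among them Alb and Apob, 0 passed the test, the median was -0.06, and the scores of the 3 Sel1L-deficient livers were 0.03, -0.09 and -0.06. Itih2, a hyaluronan-binding plasma protein, was nearest to the threshold (0.31; adjusted p = 0.0504), followed by Ambp (-0.29; adjusted p = 0.140) and Serpina1c (-0.25; adjusted p = 0.163). Acute phase proteins had a median of -0.13, with 16 of 18 below 0. The 1 called gene of that list, Apcs (serum amyloid P), rose by 1.81 on the log2 scale (adjusted p = 0.0123). Orm1 and Saa4, both acute phase proteins, differed by -1.41 and -0.77 (adjusted p = 0.271 and 0.152). Whether the members differ from these lists was not tested. The lists were not matched in level. At 9 weeks the mean level per liver of the other secreted proteins lay between 11.95 and 12.07, nearer the top of the scale (13.62). For the members it lay between 10.17 and 10.22 in wild type and between 9.56 and 9.92 in Sel1L-deficient liver. Whether differences of the other secreted proteins were compressed was not tested.

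With age, 6 of the 15 complement members rose in wild-type liver. Between 3 and 9 weeks 7 of 33 members rose (0.765% of all features were called in that direction, and 1.89% of the 9091 features at or above the lowest member's mean level) and 0 fell (1.12% of features). Over all 33 the median was 0.17, against 0.01 over all features, and 26 of 33 lay above 0, against 53.1% of features. The 9-week livers lay above the 3-week livers without overlap in 17 of 33, against 8.46% of features and 12.8% of those 9091, and below them in 0 (9.38% of features). All 15 complement members lay above 0 with a median of 0.49 and 6 that rose. The 18 members counted under coagulation had a median of 0.04 and 1 that rose. This was Serping1 (C1 inhibitor), counted among the inhibitors although its name refers to the C1 complex of complement. This comparison shares the 9-week wild-type livers with the genotype comparison at 9 weeks, so a high value in those livers enters both. Markers of other liver cells also differed between the ages in wild type. Kupffer cell markers lay below 0 in 11 of 11 (median -0.30, 1 fell), sinusoidal endothelial markers in 6 of 8 (median -0.28, 3 fell) and stellate cell markers in 7 of 8 (median -0.42, 1 fell). Erythroid markers lay below 0 in 2 of 3 (1 fell) and platelet markers in 4 of 4 (0 fell), while hepatocyte markers had a median of -0.01 (0 of 4 called). Their part in the members' values was not tested.

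The terminal components rose most, with 5 of 6 called and a median of 1.31. In wild type C6 stood at 5.69, 5.91 and 5.84 at 3 weeks and rose 7.49-fold by 9 weeks (2.91 ± 0.30, SE; adjusted p = 0.00126). C9 stood at 7.87, 7.34 and 8.47 and rose 6.27-fold (2.65 ± 0.30; adjusted p = 0.00212). No 3-week wild-type liver came within 1 log2 unit of a 9-week wild-type liver in either gene. C8a rose 2.81-fold from 8.89, 8.58 and 9.17, and C8b rose 2.18-fold from 10.44, 9.73 and 10.25 (adjusted p = 0.00912 and 0.0276). C8g rose 1.51-fold from 10.84, 10.91 and 10.71 (adjusted p = 0.00785), a smaller change with less spread. Hc differed by 0.44 ± 0.15 (adjusted p = 0.199).

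Outside the pore, C2 rose 1.55-fold from 7.62, 7.14 and 7.54 (adjusted p = 0.0345). Serping1 (feature 10484463) rose 1.49-fold, from 11.22, 11.08 and 11.25 to 11.67, 11.78 and 11.82 (adjusted p = 0.0125), with no overlap between the ages. Mbl1 (0.49; adjusted p = 0.0945), C1s1 (0.53; adjusted p = 0.147) and C1ra (0.47; adjusted p = 0.307) lay higher at 9 weeks in every wild-type liver without passing the test. The fibrinogen chains differed by -0.10, -0.03 and -0.0017 for Fga, Fgb and Fgg, and F7 by 0.03. Without replicate 3 of the 9-week wild-type livers 4 members rose, and C6, C9 and C8a rose under each of the 21 alternatives tried. The call of C2 was lost in 11 of the 21 (adjusted p up to 0.185), that of C8b in 6, that of Serping1 in 2 and that of C8g in 1.

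In Sel1L-deficient liver the same comparison of ages gave few calls. Of the 33 members 0 rose (0.0759% of features) and 1 fell, F7 (0.0787% of features were called lower). An unadjusted p under 0.05 was found for 15, against 10.1% of all features, with 13 of the 15 lower and 2 higher. F7 fell from 9.26, 8.98, 9.18 and 9.20 at 3 weeks to 8.65, 8.43 and 8.29 (-0.70 ± 0.10; adjusted p = 0.0315), and this call was lost in 12 of 21 alternatives. The same 9-week Sel1L-deficient livers enter the genotype comparison at 9 weeks, so low values in them enter both calls of F7. The median of the members was -0.18, with 26 of 33 below 0 (49.1% of features). C6 and C4bp were the 2 members without overlap on the higher side (4.67% of features). C6 lay above its 3-week values of 5.47, 5.60, 5.55 and 6.01 in each 9-week liver (1.22 ± 0.28; adjusted p = 0.136). C9 overlapped with its 3-week values of 7.93, 8.03, 8.55 and 8.53 (0.56 ± 0.28; adjusted p = 0.566), and C8a had a difference of -0.01 ± 0.22.

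Other members of the list differed downward with age in Sel1L-deficient liver, short of the threshold. Among them were Fga (-0.69; adjusted p = 0.101), Serpind1 (-0.51; adjusted p = 0.103), Fgg (-0.39; adjusted p = 0.136) and Serpinf2 (-0.57; adjusted p = 0.169). For these 4 genes every 9-week liver lay below every 3-week liver, as it did for 10 of the 33 members in all (4.69% of features). F11 had the largest downward difference of the 33 (-0.71) and was not called. The second feature of Fga, with a lower mean level, gave -1.37 (limma, adjusted p = 0.0829).

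**Figure D4:**
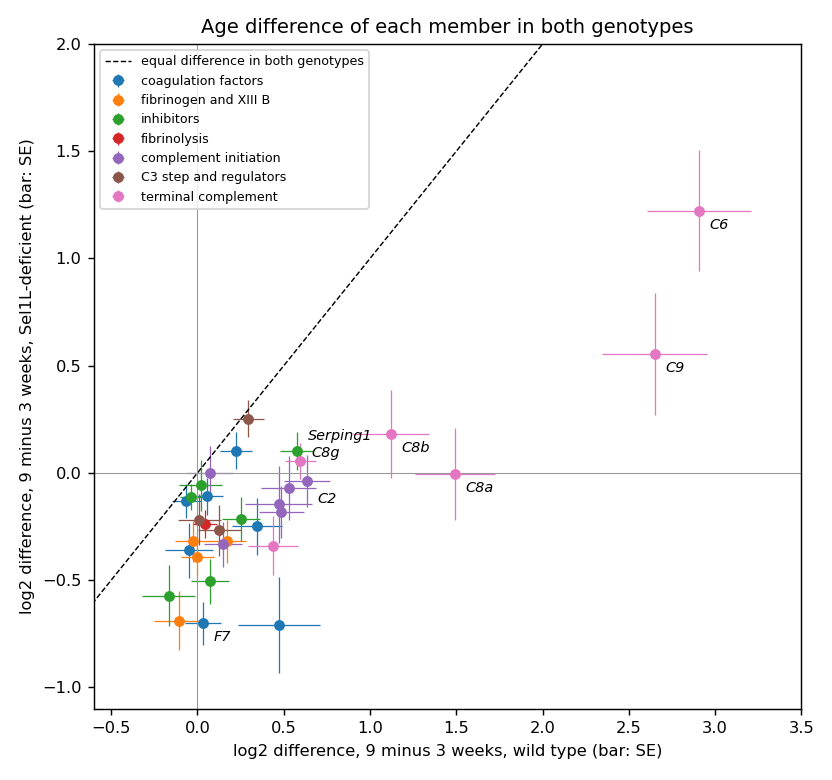
Log2 difference between 9 and 3 weeks in wild type (horizontal axis) and in Sel1L-deficient liver (vertical axis) for each of the 33 members, with bars of 1 SE and colours for the role groups. All 33 points lie below the dashed line of equal difference, and C6, C9, C8a and C8b lie farthest to the right.

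The genotype difference at 9 weeks minus that at 3 weeks (the interaction) was below 0 in all 33 members, against 51.1% of features, with a median of -0.48. None passed the test (0 of 33 by limma, 0% of features called), and 22 had an unadjusted p under 0.05, against 9.73% of features. The members with the smallest adjusted p were F7 (-0.73 ± 0.14; adjusted p = 0.179), C9 (-2.09 ± 0.42; adjusted p = 0.179), C8a (-1.50 ± 0.32; adjusted p = 0.202) and C8g (-0.54 ± 0.12; adjusted p = 0.236). C6 had -1.68 ± 0.42 (adjusted p = 0.265). The genotype effect was therefore not shown to differ between the ages for any single member. Without Sel1L-deficient replicate 1 of 9 weeks 1 member was called (the share of all features called in that fit is not given here).

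Several members are neighbours in the genome, with no other protein-coding gene between them in the RefSeq table of GRCm38.p6. C8b and C8a, on chromosome 4, differed by -0.85 and -1.15 at 9 weeks and by 1.12 and 1.49 with age in wild type. Cfb and C2, on chromosome 17, differed by -0.49 and -0.71 at 9 weeks, and C1ra and C1s1, on chromosome 6, by -0.71 and -0.78. The fibrinogen genes Fgg, Fga and Fgb lie together on chromosome 3 and differed by -0.32, -0.42 and -0.29. F7 and F10, on chromosome 8, differed by -0.65 and -0.44. C6 and C9, the members with the largest differences, both lie on chromosome 15, with 8 coding genes between them.

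Other genes of the same cascades were taken from a list. Of 21 further coagulation and fibrinolysis genes 0 passed the test at either age, and the median at 9 weeks was -0.14. Proz, a vitamin K-dependent plasma protein that aids inhibition of factor X, had the smallest p among them (9.48, 9.49 and 9.58 in wild type against 9.26, 8.82 and 8.65; -0.61, adjusted p = 0.0572). Further complement genes were taken from a second list. Clu (clusterin), which blocks pore assembly, rose with age in wild type (0.59; adjusted p = 0.00327) and differed by -0.31 at 9 weeks (adjusted p = 0.0710). Complement genes of macrophages, C1qa, C1qb and C1qc, differed by 0.10, 0.01 and 0.06 at 9 weeks.

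The enzymes and carriers that these proteins depend on were looked at as well. Vitamin K-dependent carboxylation is needed by F2, F7, F9, F10, Proc and Pros1, whose differences at 9 weeks were -0.12, -0.65, -0.50, -0.44, -0.40 and 0.02. Of 4 vitamin K cycle genes 0 passed the test. Ggcx, the carboxylase, lay above wild type in every 3-week Sel1L-deficient liver (8.62, 8.19 and 8.25 against 8.78, 8.73, 9.00 and 8.69; 0.44 ± 0.14, adjusted p = 0.514). The 7 genes of ER export listed for factors V and VIII lay above 0 at both ages, with medians of 0.19 and 0.36 and 0 called. Sec24d (0.72; adjusted p = 0.0614), a COPII coat subunit, Mcfd2 (0.61; adjusted p = 0.0603), part of the cargo receptor for factor V, and Surf4 (0.45; adjusted p = 0.0589), another cargo receptor, were nearest to the threshold at 9 weeks. Lman1, the partner of Mcfd2, differed by 0.03, and F5, its cargo, by 0.01.

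Of 17 liver transcription factors 0 passed the test at either age, and the median at 9 weeks was -0.16. Below 0 lay 10 of the 17 at 3 weeks and 14 at 9 weeks. Onecut1 had the lowest difference of the list at both ages. At 3 weeks it was -1.08 ± 0.37 (limma, adjusted p = 0.567), without overlap. At 9 weeks it was -0.85, with wild type at 8.28, 8.77 and 6.87 and Sel1L-deficient liver at 7.42, 6.76 and 7.19. Nr1h4 (the bile acid receptor FXR) stood at 9.40, 9.52 and 9.27 in wild type and 9.22, 8.70 and 8.89 in Sel1L-deficient liver (-0.46 ± 0.12; adjusted p = 0.106). Cebpa differed by -0.50 (adjusted p = 0.243), with replicate 1 at 8.47 among the wild-type values of 8.41, 8.60 and 8.38 and replicates 2 and 3 at 7.72 and 7.69. Hnf4a, a main regulator of hepatocyte genes, differed by -0.15 (adjusted p = 0.733).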

How the data were processed

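The deposited values are log2 expression levels on which, per the submitters' processing notes, the authors ran RMA (robust multi-array average). RMA quantile-normalizes arrays, so a shift shared by most genes would be largely removed. The RMA version, its software and a genome build are not given in the sources used here. Of 35556 features 21218 had 1 gene symbol in the platform annotation, 1881 had several and 12457 were not listed. Sample titles gave group and replicate.

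All 13 livers entered a single limma fit (version 3.58.1, R 4.3.3; group means, empirical Bayes, two-sided tests). Benjamini-Hochberg adjustment ran across the 35556 features, with 0.05 as the threshold for a call. The fit was also run on simulated data with the same spread in every group, so that run does not bear on groups of unequal spread. List scores are means of log2 differences from the wild-type mean of the same age. Precision is limited by the number of arrays. The labels do not say whether mice shared a litter. The p-values rest on a spread pooled over all groups, not on the compared livers alone. At 9 weeks the members' median SD was 0.20 in Sel1L-deficient and 0.06 in wild-type liver, against 0.15 in both over all features. At 3 weeks it was 0.12 and 0.09, against 0.16 and 0.15. Pooling unequal spreads can understate the error of the 9-week differences, and by how much was not tested.

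The members and all gene lists were chosen with earlier results of these data known. Per-liver values are given for members called in any comparison and for up to 4 of smallest p in each genotype comparison. From each further list up to 3 genes of smallest p in a genotype comparison are named. Mbl2, Hnf4a, Lman1, C1qa, C1qb and C1qc, and the grouping by vitamin K dependence, were added after their values were seen. A result on the further complement genes is not reported here. Alternatives were an intensity trend, a fit on the compared groups, tests on features with 1 symbol or above the median level, gene means, centred arrays, blocks for the 5 or 7 in the array descriptions and for replicate number, and leaving out each liver.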

Additional observations from a re-analysis of the deposited data

Results flagged for a closer look

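C2 in the 3-week Sel1L-deficient livers had 1 liver apart from the rest. Replicate 1 stood at 7.58 and the other 3 at 7.35, 7.35 and 7.34, so the gap to the nearest liver made up 0.948 of the group's whole range. About 1 group in 20 would be picked out in this way by chance.

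Plg lay on opposite sides of wild type at the 2 ages, and was called at neither (limma, log2 difference 0.09 with adjusted p = 0.800 at 3 weeks and -0.19 with adjusted p = 0.232 at 9 weeks). Every Sel1L-deficient liver lay above every wild-type liver at 3 weeks and below every one at 9 weeks. The difference between the age-specific effects was -0.28 ± 0.10 (SE) and did not pass the limma test (adjusted p = 0.397).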

How the results depend on the processing

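No reported call changed direction under the alternatives run, and neither did the members' median over all livers. Within the number 5 of the array descriptions, however, the 3-week median was -0.03, against 0.07 over all livers. The number of members that fell at 9 weeks was 8. It was 0 when only the 2 groups were fitted, 13 with features of 1 symbol, features above the median level or gene means, and 5 with the array descriptions' number (5 or 7) as a block. Leaving out 1 liver gave 0 to 18, and an intensity trend or centred arrays stayed within 1.5 times of 8. The 7 members that rose with age in wild type became 3 when only the 2 groups were fitted and 4 to 8 with 1 liver left out. The 1 member that fell with age in Sel1L-deficient liver became 0 with the 2 groups alone or a block for that number, 3 with features of 1 symbol or gene means, and 0 to 3 with 1 liver left out. The interaction gave 0 to 1 with 1 liver left out and could not be fitted on fewer groups. Medians with 1 liver left out ran from -0.57 to -0.37 at 9 weeks and from -0.29 to -0.11 with age in Sel1L-deficient liver. The shares of all features called under these alternatives are not given here, so the counts describe the stability of the members' calls only.

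Replicate numbers were not taken to pair the livers. The deviations of same-numbered livers from their group means correlated between -0.05 and 0.18 at 3 weeks and between -0.05 and 0.15 at 9 weeks. Those of differently numbered livers correlated between -0.23 and 0.13 and between -0.17 and 0.07. Between the wild-type ages same-numbered livers correlated at 0.09, 0.10 and 0.15 and the others between -0.09 and -0.01. Deviations from a group mean cancel out within the group, so higher correlations for some pairs of livers force lower ones for others. These correlations therefore cannot decide whether livers were paired. The array descriptions give both 9-week livers titled replicate 3 another number. With the replicate block 3 members fell at 9 weeks (F7, C9 and Mbl1), 6 rose with age in wild type and 0 fell with age in Sel1L-deficient liver.

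Without scans or detection calls, background and saturation could not be weighed for single features.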
